A study of Mus musculus with 6 samples.

Results

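Lysosomal genes were examined in satellite cells, the resident stem cells of skeletal muscle, after 2 days of differentiation. The set holds 34 genes, chosen by symbol as hydrolases, membrane proteins and regulators of the lysosome, and all 34 were found among the 21666 genes of the deposited count matrix. The 3 knockout (KO) libraries came from lncMREF KO mice and the 3 wild-type (WT) libraries from WT mice. lncMREF is a long noncoding RNA that the series title ties to myogenic differentiation and to the Smarca5/p300 complex. Sources used here name no other allele, agent, strain or age, and do not say how the deletion was made or whether animals were pooled. No count was tied to lncMREF itself, so its loss was not analysed here. Matrix totals ran from 17919826 to 23646805 counts in KO libraries and from 20193337 to 28430678 in WT libraries. The muscle markers Myog and Myh3 were present in both genotypes, and they averaged 312 and 947.7 CPM (counts scaled to the TMM-corrected library size) in KO and 749.8 and 5695 CPM in WT libraries.

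Lysosomes are acidic organelles that break down proteins, glycans and lipids delivered by endocytosis and autophagy. Most of their soluble enzymes carry a mannose 6-phosphate tag that guides them from the Golgi, whereas the membrane is lined by glycosylated proteins such as Lamp1 and Lamp2. Many of the genes are under the MiT/TFE transcription factors, which bind an E-box-like sequence in their promoters and are held in the cytoplasm when mTORC1 on the lysosomal surface is active. In muscle, lysosomes take part in autophagy and in the remodelling of differentiating cells.

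Most lysosomal genes were modestly higher in KO than in WT cells, and a smaller group was lower. Of the 34 genes, 23 were called higher and 6 lower by edgeR's quasi-likelihood test at an adjusted p under 0.05 (Benjamini-Hochberg over all 15518 genes tested), and 5 were not called. All 34 passed the filter on low counts. The share called, 85.3%, stands beside 66.7% of all genes tested and 74% of the 9587 genes whose mean level was at least that of the lowest lysosomal gene, 10.4 CPM. For rises the shares were 67.6% of the lysosomal genes, 33.7% of all genes and 34.3% of genes at or above that level, and for falls they were 17.6%, 33% and 39.7%. The median log2 fold change was 0.24 over the set and 0.02 over all genes.

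The changes were small. Only Naglu and Ctsk rose, and only Tfeb and Ctsh fell, by over 1.5-fold, and no lysosomal gene changed by over 2-fold. With scaling by library size only, in place of TMM, Ctsa, Hexa and Ctso also rose by over 1.5-fold, Ctsh no longer fell by that much, and Naglu passed 2-fold (log2 fold change 1.03). Naglu, Ctsk, Tfeb and Ctsh are 11.8% of the set, against 32% of all genes tested that were called with a change of over 1.5-fold and 23.6% of those at or above the lowest lysosomal gene's level. The 3 KO libraries lay wholly above or below the 3 WT libraries for 31 genes, 91.2% of the set, against 69.4% of all genes. The latter includes genes below the lowest lysosomal gene's level, and the share without them was not computed. Replicates were tight, with a median coefficient of variation of 3.83% in KO and 2.34% in WT libraries. Under the same scaling the median of all genes moved to 0.19, 28 lysosomal genes were higher and 5 lower, and the share of all calls that were higher was 66.1% in place of 50.5%.

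Summed over the 34 genes, KO libraries held 12160, 12390 and 12530 CPM and WT libraries 10950, 10640 and 10860 CPM. The KO sum was 14.2% above the WT sum, and the groups did not overlap. As a share of unscaled counts the set took 1.29% to 1.33% in KO and at most 1.03% in WT libraries. In bulk RNA such as this, more or fewer cells of a type and more or less RNA per cell cannot be told apart.

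**Figure D1:**
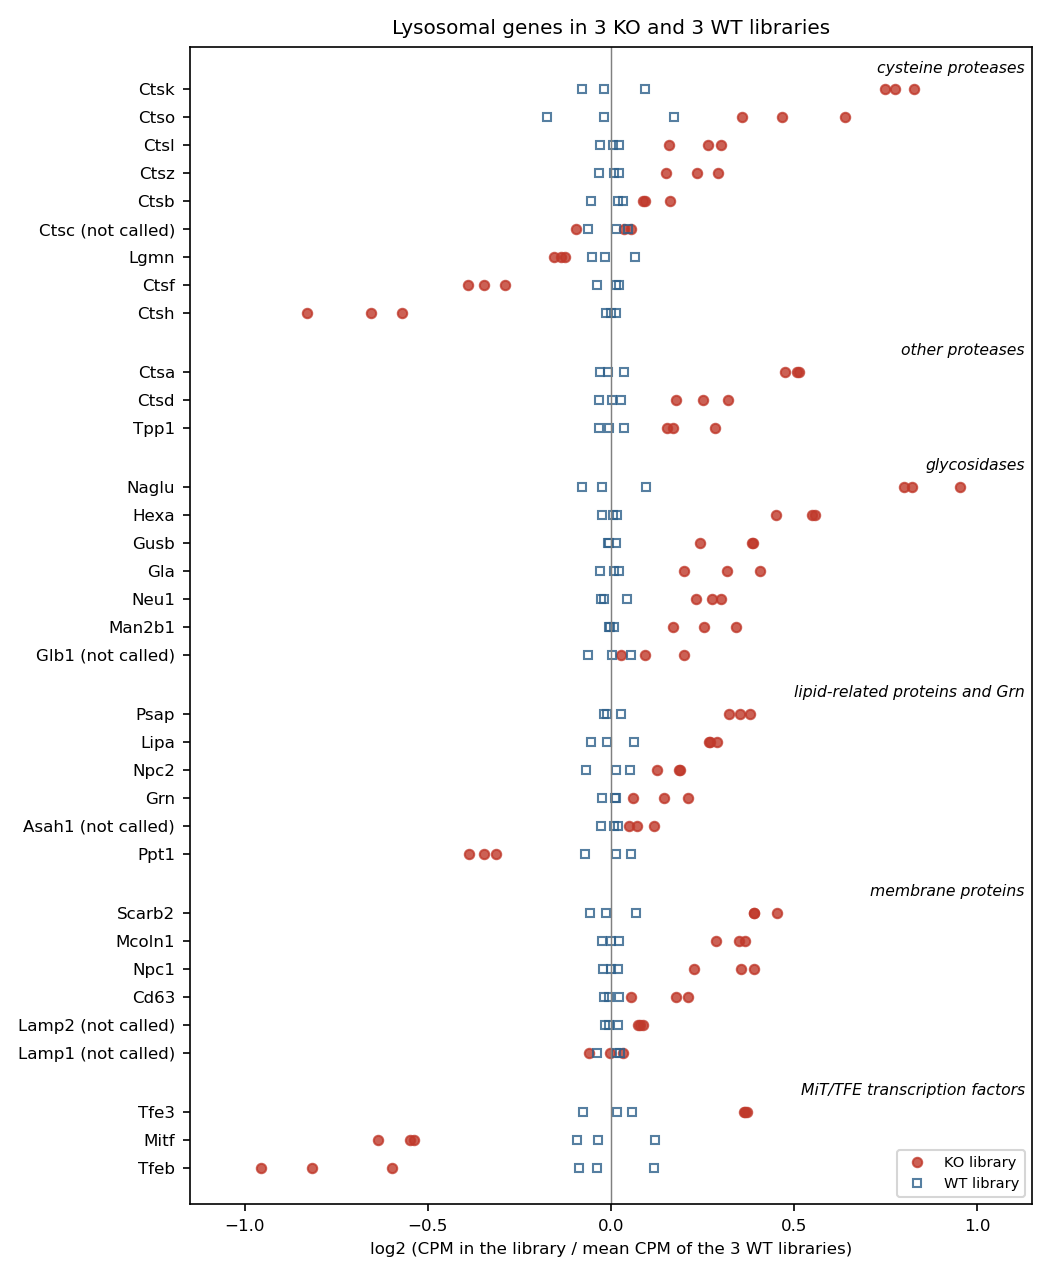
Level of each lysosomal gene in each library as the log2 ratio of its CPM to the mean CPM of the WT libraries, with KO libraries as filled circles and WT libraries as open squares, grouped by role. KO circles lie right of the WT squares for most hydrolases, left of them for Ctsh, Ctsf, Lgmn, Ppt1, Mitf and Tfeb, and among them for Lamp1, Ctsc and Glb1.

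The 3 MiT/TFE factors of the set did not move together. Tfeb, the factor best known for switching on lysosomal genes (ENSMUSG00000023990, chr17:47737030-47792419, plus strand, mm10), stood at 11.01, 9.99 and 12.8 CPM in KO libraries and at 18.9, 21.0 and 18.2 CPM in WT libraries. All KO values lay below all WT values, and in edgeR's quasi-likelihood test, used for every adjusted p given here, the log2 fold change was -0.79 (SE 0.10, adjusted p 6.03e-09). Mitf, its relative named for pigment cells (ENSMUSG00000035158, chr6:97807052-98021349, plus strand), had 8.61, 8.04 and 8.54 CPM in KO and 12.2, 13.6 and 11.7 CPM in WT libraries, and fell by 0.57 on the log2 scale (adjusted p 1.25e-05, SE 0.10). Tfe3, which binds the same sequence (ENSMUSG00000000134, chrX:7762560-7775202, plus strand), was higher, with 73.5, 73.4 and 73.8 CPM in KO and 57.7, 54.1 and 59.3 CPM in WT libraries (log2 fold change 0.36, SE 0.05, adjusted p 2.42e-07). Neither Mitf nor Tfe3 overlapped between genotypes. Per kilobase of exon, Tfe3 was the most abundant of the 3 in every library. It made up 68.6% to 72.1% of their summed level per kilobase in KO and 49.8% to 55.6% in WT libraries. The share of Tfeb was 16.1% to 19.5% in KO and 28.0% to 31.6% in WT libraries. Tfec, a further member of the family, lay outside the set, is counted among the nutrient-sensing genes, and was picked after its value was seen. It was near the floor, at 0.624 ± 0.119 CPM in KO and 0.279 ± 0.0285 CPM in WT libraries (SD, n = 3 each). Tfec was called higher (log2 fold change 1.17, SE 0.44, adjusted p 0.0191).

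**Figure D2:**
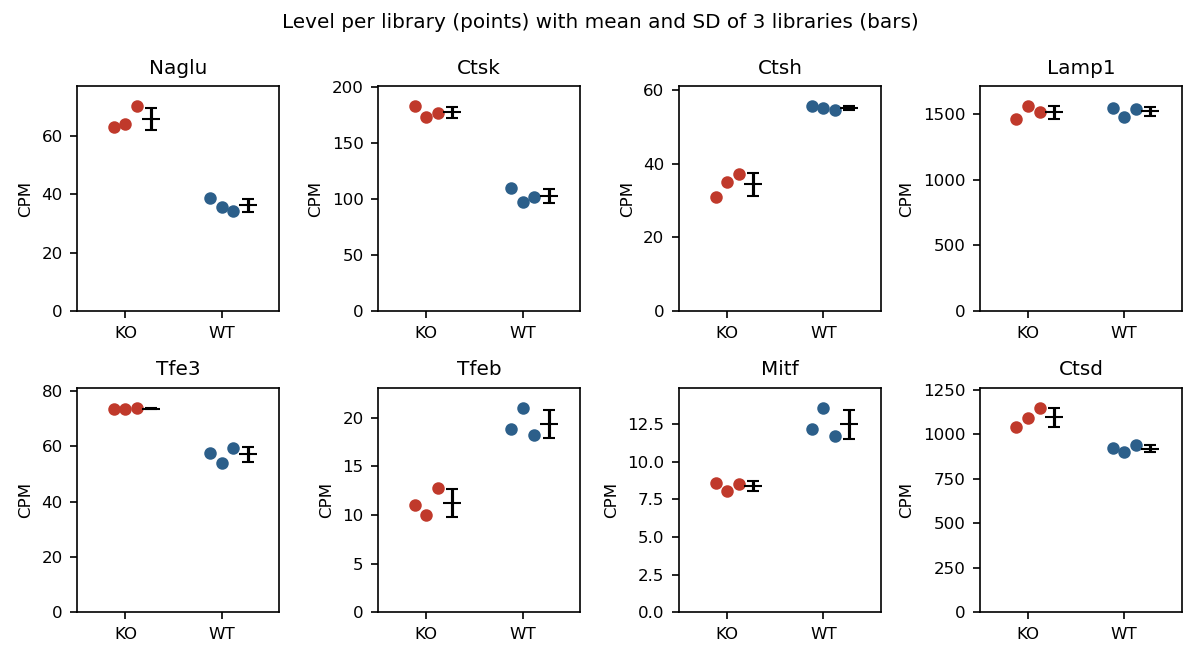
CPM in each KO and WT library (points) with the mean and SD of 3 libraries (bars) for 8 lysosomal genes. Naglu, Ctsk, Tfe3 and Ctsd are higher in KO, Ctsh, Tfeb and Mitf are lower in KO, and Lamp1 overlaps between genotypes.

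Promoters were searched for the E-box that MiT/TFE factors bind. RefSeq promoter windows (GRCm38.p6, the assembly of mm10; 250 bases before to 50 after a start site) were matched by symbol for 30 of the 34 genes, in 38 windows; Asah1, Ctsb, Ctsh and Npc1 were not matched. The core CACGTG, which reads the same on both strands, was found in 10 of the 30 genes (33.3%), against 8.09% of 27025 genes with a window and 11.5% of 11110 such genes among those tested. Counted by window, these shares were 26.3% of the lysosomal windows, 7.15% of all windows and 9.62% of the 14214 windows of tested genes. The longer palindrome TCACGTGA, which contains the core, was found in 4 genes (13.3%), Ctsa, Ctsd, Gla and Mcoln1, against 1.12% of all genes with a window and 2.11% of those tested. These shares describe the set; no test was made, and a match of letters is not a bound site.

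The stretches that hold TCACGTGA are shown to place the matches in Ctsa, Ctsd, Gla and Mcoln1, with the palindrome in capitals and 10 flanking bases in lower case, 5′ to 3′ on the strand of the gene.
Ctsa, first match (chr2:164833750-164833777, plus strand): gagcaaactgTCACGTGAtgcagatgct
Ctsa, next match (chr2:164833767-164833794, plus strand): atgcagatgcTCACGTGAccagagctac
Ctsd (chr7:142387909-142387936, minus strand): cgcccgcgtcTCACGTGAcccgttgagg
Gla, first match (chrX:134601216-134601243, minus strand): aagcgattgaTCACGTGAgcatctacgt
Gla, next match (chrX:134601183-134601210, minus strand): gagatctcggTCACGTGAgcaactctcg
Mcoln1 (chr8:3500463-3500490, plus strand): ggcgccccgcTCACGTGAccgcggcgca
The motif begins 13 bases before and again just after one of the 2 listed start sites of Ctsa, 99 before that of Ctsd, 228 and 195 before that of Gla and 46 before that of Mcoln1. All 4 genes were higher in KO (median log2 fold change 0.32), as were 17 of the 26 matched genes without the palindrome, of which 5 were lower and 4 not called (median 0.22).

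Genes with and without the core did not separate by direction. Of the 10 genes with CACGTG, 6 were higher, 2 lower and 2 not called, and of the 20 matched genes without it, 15 were higher, 3 lower and 2 not called. Their median log2 fold changes were 0.25 and 0.24. The 100 bases before the start site are shown for Lamp1, which had the most cores, for Naglu and Ctsk, which rose most, and for Ctsf and Lgmn, which carried a core and fell, with CACGTG in capitals.
Lamp1 (chr8:13159061-13159160, plus strand): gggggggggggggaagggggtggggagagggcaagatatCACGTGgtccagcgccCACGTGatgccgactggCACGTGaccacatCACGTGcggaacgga
Naglu (chr11:101069994-101070093, plus strand): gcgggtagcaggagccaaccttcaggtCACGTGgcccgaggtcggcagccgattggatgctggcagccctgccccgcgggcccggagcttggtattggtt
Ctsk (chr3:95499110-95499209, plus strand): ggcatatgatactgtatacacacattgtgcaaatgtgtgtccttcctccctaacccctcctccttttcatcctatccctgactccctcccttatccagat
Ctsf (chr19:4855065-4855164, plus strand): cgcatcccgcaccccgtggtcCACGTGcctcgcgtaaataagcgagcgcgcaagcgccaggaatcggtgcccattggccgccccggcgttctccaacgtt
Lgmn (chr12:102439093-102439192, minus strand): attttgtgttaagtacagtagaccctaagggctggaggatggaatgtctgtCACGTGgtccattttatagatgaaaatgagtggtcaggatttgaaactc
Lamp1 holds 4 cores, beginning 61, 45, 28 and 15 bases before its start site, and was not called. Ctsk, with no core in its whole window, had the second largest rise, and Naglu, with 1 core beginning 73 bases before its start site, had the largest. The Lgmn stretch belongs to one of its 2 listed start sites.

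**Figure D3:**
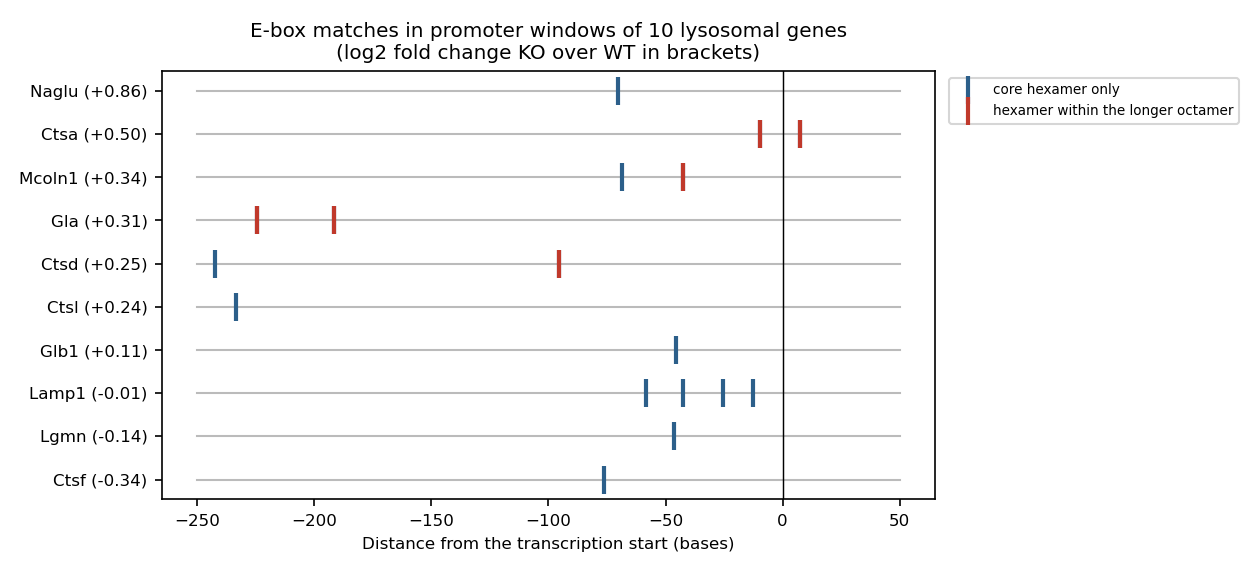
Position of the core E-box in promoter windows from 250 bases before to 50 bases after the start site, for the 10 lysosomal genes that hold it, in order of log2 fold change from Naglu (0.86) to Ctsf (-0.34). Red marks are cores inside the longer palindrome, found in Ctsa, Mcoln1, Gla and Ctsd, and blue marks are cores alone, of which Lamp1 has 4.

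The cysteine proteases, which cut proteins with an active-site cysteine, split by direction. Of 9, Ctsk, Ctso, Ctsl, Ctsz and Ctsb were higher, Ctsh, Ctsf and Lgmn were lower, and Ctsc was not called. Ctsk, cathepsin K, degrades collagen and is best known from osteoclasts (ENSMUSG00000028111, chr3:95499256-95509362, plus strand). It had 182.5, 172.8 and 176.3 CPM in KO libraries and 109.7, 97.3 and 101.6 CPM in WT libraries, a 1.72-fold rise (log2 fold change 0.78, SE 0.05, adjusted p 9.03e-17) with no overlap. Ctsh, an aminopeptidase (ENSMUSG00000032359, chr9:90054152-90076089, plus strand), had 31.0, 35.0 and 37.1 CPM in KO and 55.6, 55.1 and 54.6 CPM in WT libraries (log2 fold change -0.68, SE 0.06, adjusted p 1.14e-11). The WT values of Ctsh were nearly the same, and all KO values lay well below them. Ctsk and Ctsh were set out by library after their values were seen.

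Cathepsin L (Ctsl) and cathepsin B (Ctsb), the broad endopeptidases of the organelle, changed less. Ctsl had 934.6, 867.2 and 956.7 CPM in KO and 789.6, 760.7 and 780.7 CPM in WT libraries (log2 fold change 0.24, SE 0.04, adjusted p 5.09e-06). Ctsb had 1088, 1085 and 1141 CPM in KO and 1035, 981.9 and 1044 CPM in WT libraries (log2 fold change 0.11, SE 0.04, adjusted p 0.0138). The KO libraries were higher for both, but Ctsb did not pass the threshold when WT replicate 1 (0.0643), WT replicate 2 (0.161) or KO replicate 3 (0.0799) was left out (adjusted p in brackets). Its adjusted p ran from 1.79e-07 to 0.161 over the alternatives. Ctsl shares 26.8% of its exonic bases with the antisense gene Gm47123 and Ctsb 12.8% with Fdft1 on the opposite strand, and counting without strand would not separate them.

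Among the other cysteine proteases, the low-level Ctso rose by 0.49 (SE 0.09) and the carboxypeptidase Ctsz by 0.23 (SE 0.04) on the log2 scale. Ctsf fell by 0.34 (SE 0.06) and legumain (Lgmn), which cuts after asparagine, fell by 0.14 (SE 0.04, adjusted p 0.00513). The Lgmn fall was not called without WT replicate 1 (-0.12, adjusted p 0.0504) and turned to 0.03 with scaling by library size only. Ctsc, the dipeptidyl peptidase that activates proteases of immune granules, averaged 96.3 ± 5.37 CPM in KO and 96.2 ± 3.63 CPM in WT libraries (SD, n = 3 each), and the 95% interval of its log2 fold change was -0.10 to 0.10.

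All 3 proteases of other classes rose. The aspartic protease Ctsd, cathepsin D, had 1042, 1095 and 1149 CPM in KO and 922.5, 900.6 and 938.3 CPM in WT libraries (log2 fold change 0.25, SE 0.04, adjusted p 2.59e-06). The carboxypeptidase Ctsa averaged 422.9 ± 6.21 CPM in KO and 299.2 ± 7.1 CPM in WT libraries (SD, n = 3 each; log2 fold change 0.50, SE 0.04, adjusted p 4.37e-13). The tripeptidyl peptidase Tpp1 rose by 0.20 (SE 0.04). KO and WT libraries did not overlap for any of the 3. Ctsd shares 34.4% of its exonic bases with Gm49369 on the same strand and Ctsa 17.4% with Pltp on the opposite strand.

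Of the 7 glycosidases, which trim sugars from glycolipids, glycoproteins and glycosaminoglycans, 6 rose and Glb1 was not called. Naglu, which removes N-acetylglucosamine from heparan sulphate, had the largest rise of the whole set (ENSMUSG00000001751, chr11:101070012-101077672, plus strand). It had 63.1, 64.0 and 70.2 CPM in KO and 38.7, 35.6 and 34.3 CPM in WT libraries, a 1.81-fold difference (log2 fold change 0.86, SE 0.06, adjusted p 1.18e-14). Every KO library exceeded every WT library, and Naglu was also set out by library after its values were seen. Hexa, which acts on gangliosides, averaged 269 ± 10.8 CPM in KO and 187.5 ± 2.76 CPM in WT libraries (SD, n = 3 each; log2 fold change 0.52, SE 0.04). Hexa shares 12.8% of its exonic bases with Tmem202.

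Gusb (beta-glucuronidase), Gla (alpha-galactosidase A), Neu1 (a sialidase) and Man2b1 (alpha-mannosidase) rose by 0.34, 0.31, 0.27 and 0.26 on the log2 scale, with adjusted p-values from 2.43e-07 to 3.81e-05. Glb1, the beta-galactosidase, averaged 93.3 ± 5.7 CPM in KO and 86.5 ± 3.56 CPM in WT libraries (SD, n = 3 each; log2 fold change 0.11, SE 0.05, adjusted p 0.0611). It was called without KO replicate 1 (0.15, adjusted p 0.0248) and with scaling by library size only (0.28, adjusted p 1.2e-05). Glb1, Neu1 and Ctsa form a complex in which Ctsa protects its partners; of these, Ctsa and Neu1 rose, whereas the 95% interval for Glb1 was 0.004 to 0.21. The differences between the 3 were not tested.

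Of 6 genes, 5 of them lipid-related and the other progranulin, 4 rose, Ppt1 fell and Asah1 was not called. Psap, the precursor of the saposins that help hydrolases act on sphingolipids, averaged 1610 ± 32.0 CPM in KO and 1262 ± 21.98 CPM in WT libraries (SD, n = 3 each; log2 fold change 0.35, SE 0.04, adjusted p 9.59e-10). The acid lipase Lipa rose by 0.28 (SE 0.05) and the cholesterol carrier Npc2 by 0.17 (SE 0.04). Progranulin (Grn), which is cut into granulins in lysosomes, rose by 0.14 (SE 0.04, adjusted p 0.00404) and was not called without WT replicate 3 (0.12, adjusted p 0.051). Over the alternatives the adjusted p of Grn ran from 7.38e-08 to 0.051. Ppt1, which removes palmitate from proteins, had 79.2, 81.0 and 76.9 CPM in KO and 104.5, 95.8 and 101.6 CPM in WT libraries, and fell by 0.35 on the log2 scale (SE 0.05, adjusted p 1.35e-07). Its KO libraries all lay below the WT libraries. The acid ceramidase Asah1 averaged 507.1 ± 12.1 CPM in KO and 479.7 ± 7.84 CPM in WT libraries (SD, n = 3 each; log2 fold change 0.08, 95% interval -0.002 to 0.16, adjusted p 0.0784). The KO libraries of Asah1 all lay above the WT libraries, and scaling by library size only called it (0.25).

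Of the 6 membrane proteins, 4 rose, and Lamp1 and Lamp2 were not called. Lamp1, a heavily glycosylated coat protein of the lysosomal membrane, had 1459, 1557 and 1518 CPM in KO and 1547, 1480 and 1534 CPM in WT libraries. The genotypes overlapped, and the 95% interval of the log2 fold change (-0.01, adjusted p 0.861) was -0.09 to 0.07. Lamp2, its relative with a part in autophagy, had 561.2, 566.4 and 563.2 CPM in KO and 526.6, 540 and 531.2 CPM in WT libraries. KO libraries were higher by a small margin, and the test did not call it (log2 fold change 0.08, SE 0.04, adjusted p 0.0677). Scaling by library size only gave Lamp1 0.16 and Lamp2 0.25, both called, and limma voom also called Lamp2 (adjusted p 0.0469). The tetraspanin Cd63 rose by 0.15 (SE 0.04, adjusted p 0.0024).

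Scarb2, a receptor that carries cargo to lysosomes, averaged 372.9 ± 9.72 CPM in KO and 280.2 ± 12.3 CPM in WT libraries (SD, n = 3 each; log2 fold change 0.41, SE 0.04, adjusted p 1.69e-10). The calcium channel Mcoln1 averaged 74.5 ± 2.16 CPM in KO and 59.0 ± 0.967 CPM in WT libraries (log2 fold change 0.34, SE 0.05, adjusted p 7.97e-07). The cholesterol transporter Npc1 rose by 0.33 (SE 0.05, adjusted p 2.56e-07). Its partner in cholesterol export, Npc2, moved in the same direction by less, a difference that was not tested.

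Levels of the 34 genes were compared per kilobase of exon. The mean over 6 libraries ran from 1.69 CPM per kilobase for Mitf to 566.7 for Lamp1. Lamp1, Psap (523.3), Ctsd (428.8), Cd63 (226.6) and Ctsb (175.6) headed the order, and Mitf, Tfeb (2.7), Ctso (3.15), Ctsf (6.37) and Tfe3 (7.05) closed it. In KO libraries Psap averaged 586.8 and Lamp1 565 CPM per kilobase, and in WT libraries Psap averaged 459.9 and Lamp1 568.4. Of the 5 genes at the top, 4 were called higher, by 0.11 to 0.35 on the log2 scale. The counts behind these levels ran from 162 for Mitf in 1 KO library to 41112 for Lamp1 in 1 WT library.

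**Figure D4:**
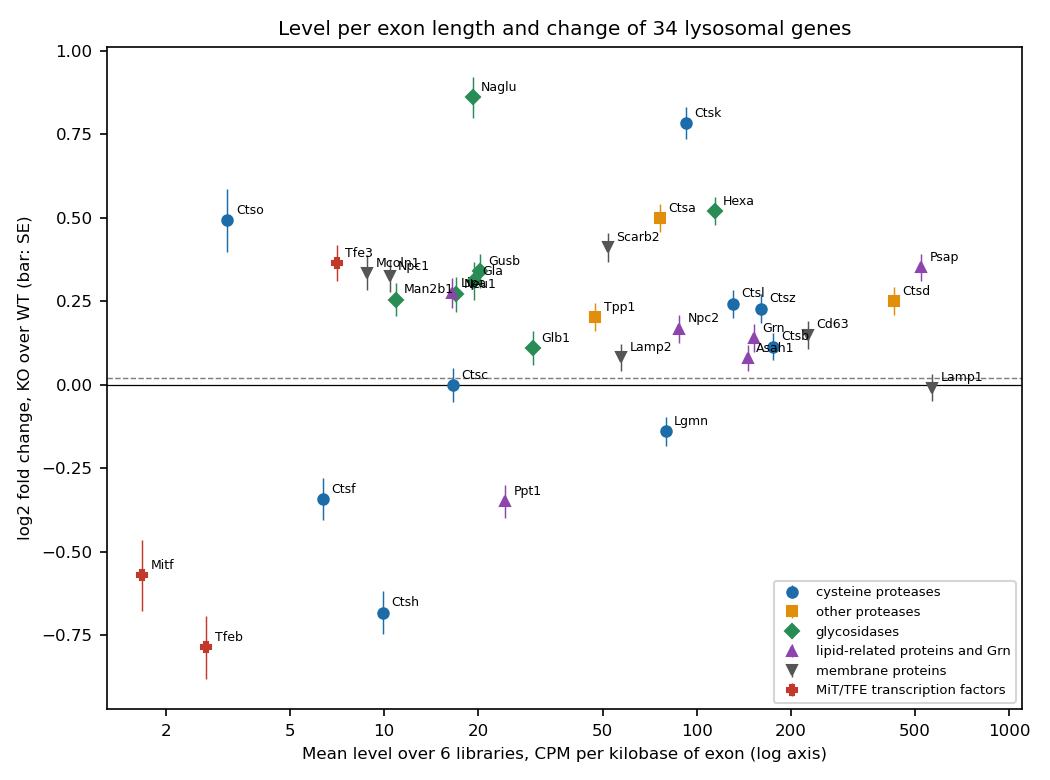
Log2 fold change, KO over WT, with its SE, against the mean level over 6 libraries in CPM per kilobase of exon on a log axis, for the 34 lysosomal genes by role. The dashed line is the median of all genes tested, 0.02; most points lie above it across the range of levels, Tfeb, Ctsh, Mitf, Ppt1, Ctsf and Lgmn lie below it, and Ctsc and Lamp1 lie just under it.

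The counts in the lists that follow stand beside 33.7% of all genes tested called higher and 33% called lower. Among genes at or above the lowest lysosomal gene's level these shares were 34.3% and 39.7%, and 74% were called in either direction. Of 34 tested genes listed as hydrolases outside the set, 20 were higher, 4 lower and 10 not called. Their median log2 fold change was 0.27, and the list also holds the acetyltransferase Hgsnat. The share called was 70.6%, against 66.7% of all genes tested and 74% of those at or above the lowest lysosomal gene's level. The genes with the smallest p-values were cathepsin S (Ctss, 36.2 ± 2.27 CPM in KO and 6.59 ± 1.37 CPM in WT; log2 fold change 2.44, SE 0.10), a protease of antigen-presenting cells, the alpha-mannosidase Man2b2 (0.73, SE 0.05) and the arylsulphatase Arsa (0.62, SE 0.05; 18.8% of its exonic bases are shared). Ctsw, a protease of cytotoxic lymphocytes, fell by 1.61 (SE 0.16) and was picked after its value was seen. Its level was low, at 2.43 ± 0.382 CPM in KO and 7.41 ± 0.682 CPM in WT libraries.

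Other membrane proteins of the lysosome moved both ways. Of 27 tested, 15 were higher and 8 lower (median 0.36), or 16 and 3 with scaling by library size only. The share called was 85.2%, against 66.7% of all genes tested. Cd164, a sialomucin, averaged 349 ± 10.7 CPM in KO and 644.1 ± 6.65 CPM in WT libraries (SD, n = 3 each; log2 fold change -0.88, SE 0.04, adjusted p 5e-20). Cd68, a macrophage relative of the Lamp proteins, and Laptm5, a membrane protein of blood cells, rose by 2.25 (SE 0.12) and 1.67 (SE 0.09). Cd68 averaged 15.5 ± 1.28 CPM in KO and 3.29 ± 0.319 CPM in WT libraries (SD, n = 3 each).

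For the vacuolar ATPase, the pump that acidifies lysosomes, 8 of 20 tested subunits and accessory proteins were higher and 7 lower (median 0.09). The share called was 75%, against 66.7% of all genes tested and 74% of those at or above the lowest lysosomal gene's level. Scaling by library size only gave 13 higher and 3 lower. The smallest p-values belonged to Atp6v0d1 (0.55, SE 0.05), Atp6v0a2 (-0.56, SE 0.05) and Atp6v0d2 (2.16, SE 0.21), a subunit known from osteoclasts and macrophages that stood at 4.93 ± 0.206 CPM in KO and 1.11 ± 0.315 CPM in WT libraries. The d1 subunit, the form most cells use, averaged 189.6 ± 9.01 CPM in KO and 129.7 ± 2.93 CPM in WT libraries.

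Of 16 genes for the delivery of enzymes, 8 were higher and 2 lower (median 0.13). The share called was 62.5%, against 66.7% of all genes tested. The sorting receptor Sort1 averaged 51.8 ± 2.9 CPM in KO and 107.3 ± 3.24 CPM in WT libraries (SD, n = 3 each; log2 fold change -1.05, SE 0.05, adjusted p 4.67e-19), and the Golgi adaptor Gga2 fell by 0.30 (SE 0.05). The clathrin adaptor subunit Ap1m1 rose by 0.35 (SE 0.05). Of the mannose 6-phosphate receptors, both picked after their values were seen, Igf2r rose by 0.12 (SE 0.04, adjusted p 0.0163) and M6pr was not called (0.03, SE 0.04, adjusted p 0.513).

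Nutrient-sensing genes of the lysosomal surface included 11 higher and 5 lower of 19 tested (median 0.15), with 8 higher under DESeq2 or without any one WT replicate. The share called was 84.2%, against 66.7% of all genes tested. Raptor (Rptor), the mTORC1 subunit that recruits substrates, averaged 79.5 ± 4.61 CPM in KO and 145.2 ± 4.1 CPM in WT libraries (log2 fold change -0.87, SE 0.05, adjusted p 1.24e-17). The GTPase Rragd fell by 0.99 (SE 0.06), and the folliculin partner Fnip2 rose by 1.09 (SE 0.06). The kinase gene Mtor also fell, by 0.61 (SE 0.05), and among the Ragulator genes, which anchor the complex to the membrane, Lamtor1, Lamtor2 and Lamtor4 rose by 0.46, 0.40 and 0.66 (18.7% of the exonic bases of Lamtor1 are shared); Mtor and the Lamtor genes were picked after their values were seen. Lamtor3 (0.13, adjusted p 0.0184) and Lamtor5 (0.15, adjusted p 0.032) passed the threshold in 6 and 5 of 12 alternatives, with adjusted p-values of up to 0.0932 and 0.109.

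Of 26 autophagy genes 10 were higher and 12 lower (median -0.03), or 14 and 9 with scaling by library size only. The share called was 84.6%, against 66.7% of all genes tested. The receptor Sqstm1 (p62) averaged 1122 ± 39.0 CPM in KO and 621.2 ± 20.2 CPM in WT libraries (SD, n = 3 each; log2 fold change 0.85, SE 0.04, adjusted p 2.4e-19; 17.3% of its exonic bases are shared). Gabarap, which coats autophagosomes, rose by 0.59 (SE 0.04), and the mitophagy receptor Bnip3 fell by 0.67 (SE 0.05; 22.3% of its exonic bases are shared). Among 4 tested inhibitors of cathepsins 3 were higher, Cst6 by 1.298 (SE 0.18), Cstb by 0.49 (SE 0.07) and Serpinb6a by 0.15 (SE 0.04; 29.3% of its exonic bases are shared), and cystatin C (Cst3) was not called (0.07, SE 0.05). Cst6 was low, at 5.85 ± 0.311 CPM in KO and 2.33 ± 0.665 CPM in WT libraries.

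**Figure D5:**
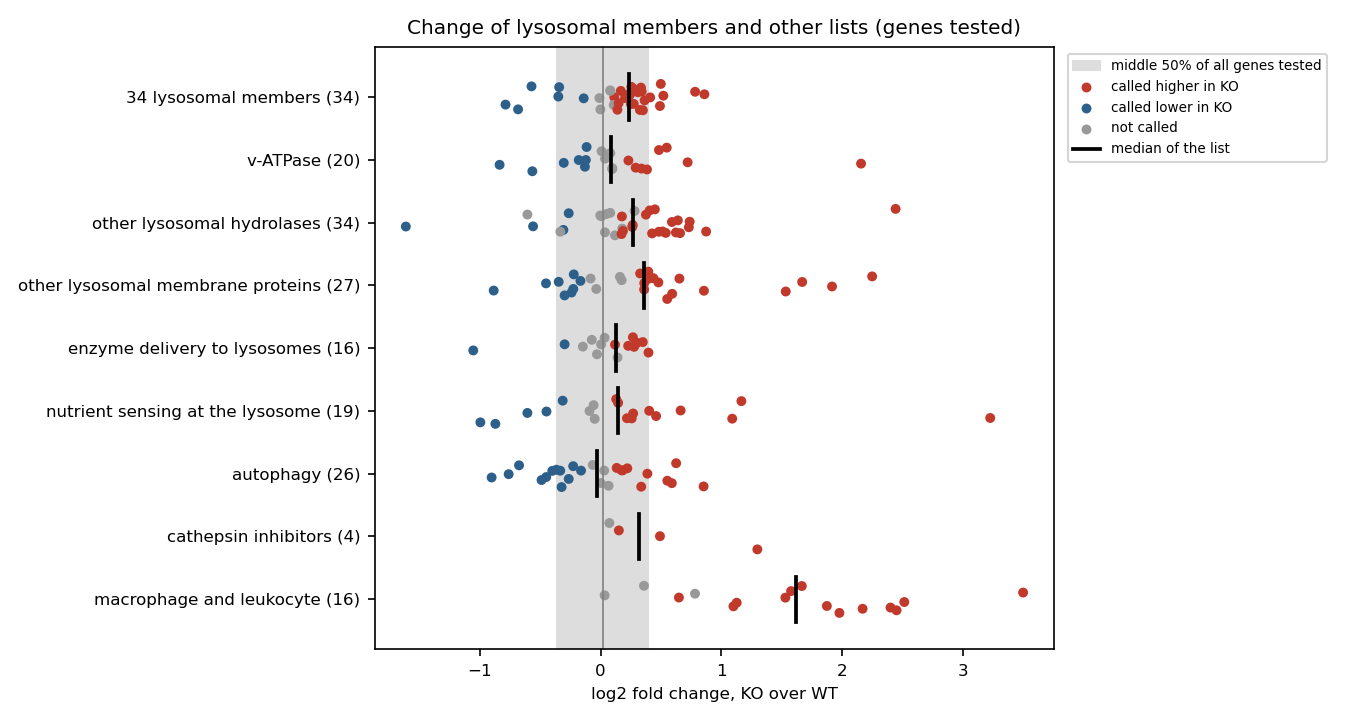
Log2 fold change, KO over WT, of each tested gene in the lysosomal set, 7 related lists and the macrophage list, with the number of tested genes in brackets; red points were called higher, blue points lower, grey points were not called, and black bars are medians. The band is the middle 50% of all genes tested, -0.36 to 0.39; it holds 25 of the 34 lysosomal genes, whereas the macrophage list has a median of 1.62.

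Markers of other cell types differed between the same libraries. Their counts stand beside 33.7% of all genes tested called higher and 33% called lower. Macrophages are rich in lysosomal hydrolases, and of 16 tested macrophage and leukocyte markers 13 were higher in KO and 0 lower, with a median log2 fold change of 1.62. The list of 18 genes summed to 315.7 to 320.5 CPM in KO and to 104 to 111.3 CPM in WT libraries, of which lysozyme (Lyz2) made up 238.3 CPM in KO and 82.5 CPM in WT on average. The defining markers were low but above 0 in every library. Ptprc averaged 2.89 ± 0.496 CPM in KO and 0.789 ± 0.0544 CPM in WT libraries, and Spi1 3.05 ± 0.467 CPM in KO and 0.552 ± 0.0749 CPM in WT. Csf1r averaged 8.99 ± 1.3 CPM in KO and 2.99 ± 0.17 CPM in WT libraries, and Adgre1 5.26 ± 0.568 CPM in KO and 3.32 ± 0.597 CPM in WT (SD, n = 3 each). Of 5 osteoclast markers listed, Dcstamp and Calcr were absent from the count matrix. Mmp9 fell by 0.31 (SE 0.08), Acp5, also counted among the hydrolases, was not called, and Ocstamp was too low to test. The 3 genes summed to 24.3 to 25.8 CPM in KO and 27.7 to 30.2 CPM in WT libraries. Their part in the rises of Ctsk and the other lysosomal genes was not tested.

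Of 8 Schwann cell markers 6 were higher and 1 lower, and they summed to 940.1 to 954.2 CPM in KO and 482.6 to 487.7 CPM in WT libraries. Ngfr made up 518.9 CPM of the sum in KO and 130 CPM in WT on average. Sox10 averaged 123.3 ± 4.58 CPM in KO and 31.7 ± 1.14 CPM in WT libraries. Erbb3, the marker that fell, averaged 120.6 ± 8.33 CPM in KO and 244 ± 4.76 CPM in WT libraries (log2 fold change -1.02, SE 0.05). Of 7 tested fibro-adipogenic markers 2 were higher and 4 lower, with sums of 937.9 to 992.6 CPM in KO and 905 to 933 CPM in WT libraries. Pdgfra averaged 90.5 ± 4.98 CPM in KO and 69.5 ± 0.207 CPM in WT, and Gsn, the other gene that rose, 701.7 ± 32.2 CPM in KO and 578.6 ± 10.99 CPM in WT. Cd34 fell by 2.15 on the log2 scale, Dcn by 0.59, Ly6a by 0.45 and Dpt by 0.42. Without Gsn, left out after its values were seen, the list summed to 252.3 to 266.5 CPM in KO and 332.7 to 341.8 CPM in WT libraries. All 7 endothelial markers were lower, with sums of 72.7 to 78.4 CPM in KO and 296.8 to 304.7 CPM in WT libraries and Pecam1 at 5.42 ± 0.87 CPM in KO and 49.6 ± 0.864 CPM in WT (SD, n = 3 each). All 8 markers of differentiating muscle were lower too, at 4015 to 4340 CPM in KO and 17970 to 18640 CPM in WT libraries. Whether these cell types contributed to the lysosomal differences was not tested.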

How the data were processed

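RNA-seq of total RNA from 3 lncMREF KO and 3 WT libraries was analysed. Raw counts for Ensembl genes were deposited by the authors as a matrix of the whole series and as a table per library; HISAT2 2.2.1, featureCounts 2.0.1 and mm10 are named per the submitters' processing notes, while the annotation and the handling of strand are not stated there. In the per-library tables none of the 34 lysosomal genes had a mean count within 0.8 to 1.25 times that of the matrix and 14 averaged under 1 count, Ctsd and Lamp2 among them, while among 9941 genes averaging 200 or more counts 5.84% fell within that range, so those tables were only compared and not tested.

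Genes were kept by filterByExpr (minimum count 10, minimum total 15), scaled by TMM and fitted with edgeR 4.0.16 in R 4.3.3, with genotype as the only term, robust dispersions and the quasi-likelihood F-test. P-values were adjusted by Benjamini-Hochberg over 15518 genes. CPM use TMM-scaled library sizes; the SE was taken as log2 fold change over root F. The common biological coefficient of variation was 4.91%. Symbols, mm10 positions, exonic lengths and exonic bases shared on either strand (bedtools 2.31.1) come from GENCODE M21. Whether replicates came from different animals or cultures is not labelled, so the p-values rest on library-to-library spread that may be only technical. Replicate pairs differed by more than sampling noise (mean chi-square per gene 3.18 to 5.11).

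The genes and lists were chosen with earlier results of these data known. Values in every library were to be given for members past 2-fold, the MiT/TFE factors, Lamp1, Lamp2, Ctsb, Ctsd and Ctsl, and in each list the 3 called genes with the smallest p. Alternatives were RLE factors, library size only, no low-count filter, DESeq2 1.42.0, limma voom (limma 3.58.1), a replicate block and leaving out each library. Values of some genes in the lists are not reported here.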

Additional observations from a re-analysis of the deposited data

How the results depend on the processing

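Over 12 alternatives, 26 of the 34 lysosomal genes kept their direction and their side of the threshold in each one; the exceptions were Asah1, Ctsb, Ctsc, Glb1, Grn, Lamp1, Lamp2 and Lgmn. RLE factors, DESeq2 and no low-count filter changed no lysosomal call. Scaling by library size only turned Ctsc (0.17), Lamp1 (0.16) and Lgmn (0.032), and it gave 5 lysosomal genes higher and 1 lower by over 1.5-fold in place of 2 and 2, 13 vacuolar ATPase genes higher and 3 lower in place of 8 and 7, 2 other hydrolases lower in place of 4, 3 other membrane proteins lower in place of 8, and 1 osteoclast marker higher and 0 lower in place of 0 and 1. By construction it leaves out the TMM factors, which were 1.06 in KO and 0.94 in WT libraries. Leaving out single libraries gave 22 to 24 lysosomal genes higher, 5 to 6 lower and 0 to 1 osteoclast markers higher; it turned Ctsc, which ran from -0.042 to 0.047 (above 0 without WT replicate 3 or KO replicate 2), and Lamp1, which ran from -0.04 to 0.015 (above 0 without KO replicate 1), neither of them called. The labels do not say whether libraries with the same replicate number are paired. Deviations of same-numbered libraries from their group means correlated at -0.000914, -0.00889 and -0.025, so no pairing was seen. These deviations sum to 0 over the 3 libraries of a group, so such values cannot exclude pairing. With the replicate block 23 lysosomal genes were higher and 6 lower, as without it, and Ctsc stood at 0.001 (adjusted p 0.99). The causes of other changes were not tested. Depth limits Mitf, Ctso and Tfeb most, which had the fewest counts of the 34 genes.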

Other observations

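Enzymes that degrade heparan sulphate are spread over the lysosomal set and the list of other hydrolases, and they were grouped here after their values were seen, so the group is a description only. Naglu (log2 fold change 0.86), the N-sulphatase Sgsh (0.51, SE 0.08), the iduronidase Idua (0.45, SE 0.08), the acetyltransferase Hgsnat (0.43, SE 0.06), Gusb (0.34) and the iduronate sulphatase Ids (0.27, SE 0.06) were higher in KO; the group is not complete. Sgsh shares 21.6% of its exonic bases with another gene.

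Among sphingolipid enzymes, the sphingomyelinase Smpd1 was lower in KO (-0.26, SE 0.05), whereas galactocerebrosidase (Galc, 0.38, SE 0.07) and Arsa were higher; these too were picked after their values were seen.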
